A study of Mus musculus with 4 samples.

Results

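The genes described here make, inactivate or sense prostaglandins and leukotrienes. They are *Ptgs1*, *Ptgs2*, *Ptges*, *Ptgis*, *Hpgd*, *Ptger4*, *Alox5* and *Alox5ap*, chosen by symbol, and all 8 were found among the 32285 genes of the feature tables. The data were single-cell RNA-Seq libraries of cryopreserved left lungs from male wild-type C57BL/6 mice. Each of the 4 groups was 1 library made from a pool of 3 mice. The young nonventilated group (2–3 months old) and the aged nonventilated group (22 months old) were naive mice that had no anesthesia. The young ventilated and aged ventilated groups were anesthetized with ketamine, medetomidine and buprenorphine and ventilated for 3 hours at a high tidal volume with pure oxygen and no end-expiratory pressure. The methods give a restricted diet for the mice raised to old age and name none for the young ones, so that diet and age cannot be told apart. Mechanical ventilation and anesthesia cannot be told apart either, and with 1 pooled library per group there was no spread between animals and no test was possible.

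Cyclooxygenases, encoded by *Ptgs1* and *Ptgs2*, convert arachidonic acid to the precursor of all prostanoids, which *Ptges* turns into prostaglandin E2 and *Ptgis* into prostacyclin. Prostaglandin E2 acts through several receptors, among them EP4 (*Ptger4*), and is removed by the dehydrogenase encoded by *Hpgd*, an enzyme for which the lung is a main site of prostaglandin clearance. Leukotrienes come from the same fatty acid through arachidonate lipoxygenase (*Alox5*), which needs the membrane protein encoded by *Alox5ap* and is known chiefly from myeloid cells.

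The 4 libraries held 15428 barcodes, of which 10160 cells were kept (2533 without and 2976 with ventilation from young mice, 2480 and 2171 from aged mice), with a median of 7871 to 9104 unique molecular identifiers (UMIs) per cell. Clustering without the genes under study gave 15 classes with 9230 cells, each named for the cell type whose markers it resembled, so that every class name stands for cells that are like that type. In the 13 classes with a marker list of the same name, at most 1 of the 8 own markers was at 0 in any library. A further 564 capillary cells with few UMIs, of which finer clustering placed 326 with general capillary cells and 238 with aerocytes, and 366 unnamed cells were set apart. Each pair of libraries shared between 0 and 7 barcodes. A level below is the UMIs of a gene per 1000000 UMIs of its class in 1 library (CPM). Intervals are exact 95% intervals for counting error only, and they say nothing of the spread between cells or between mice. A gene was called higher or lower in a class where the CPM ratio was at least 2 or at most 0.5 with at least 20 UMIs in 1 of the 2 libraries. Where 4 values follow each other with no label, they are the young nonventilated, young ventilated, then aged nonventilated and last the aged ventilated library. The comparisons of ventilation and of age share libraries and are not independent.

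The class with the highest level differed among the 8 genes, though some genes shared one. *Ptgs1* and *Hpgd* were highest in general capillary endothelial cells, *Ptges* in interstitial fibroblasts, *Ptgis* in myofibroblasts and interstitial fibroblasts, *Ptger4* in interstitial macrophages or dendritic cells, and *Ptgs2*, *Alox5* and *Alox5ap* in granulocytes. By UMIs, general capillary endothelial cells held 57.0% of *Ptgs1* and 70.5% of *Hpgd*. Interstitial fibroblasts held 65.9% of *Ptges* and 79.0% of *Ptgis*. Alveolar macrophages held 55.3% of *Alox5*, and monocytes held 47.0% of *Alox5ap*. *Ptgs2* and *Ptger4* were more spread out. Neutrophils or eosinophils held 27.6% and interstitial fibroblasts 24.8% of *Ptgs2*, while monocytes held 28.5% and interstitial fibroblasts 27.1% of *Ptger4*. Interstitial fibroblasts also held 22.8% of *Ptgs1*. For every gene but *Alox5*, the leading class overlapped the next one in its range over the 4 libraries. At the finer clustering resolution of 0.5, *Ptgs1* was highest in alveolar type II cells. With each cell thinned to 1000 UMIs, *Ptges* was highest in myofibroblasts.

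**Figure D1:**
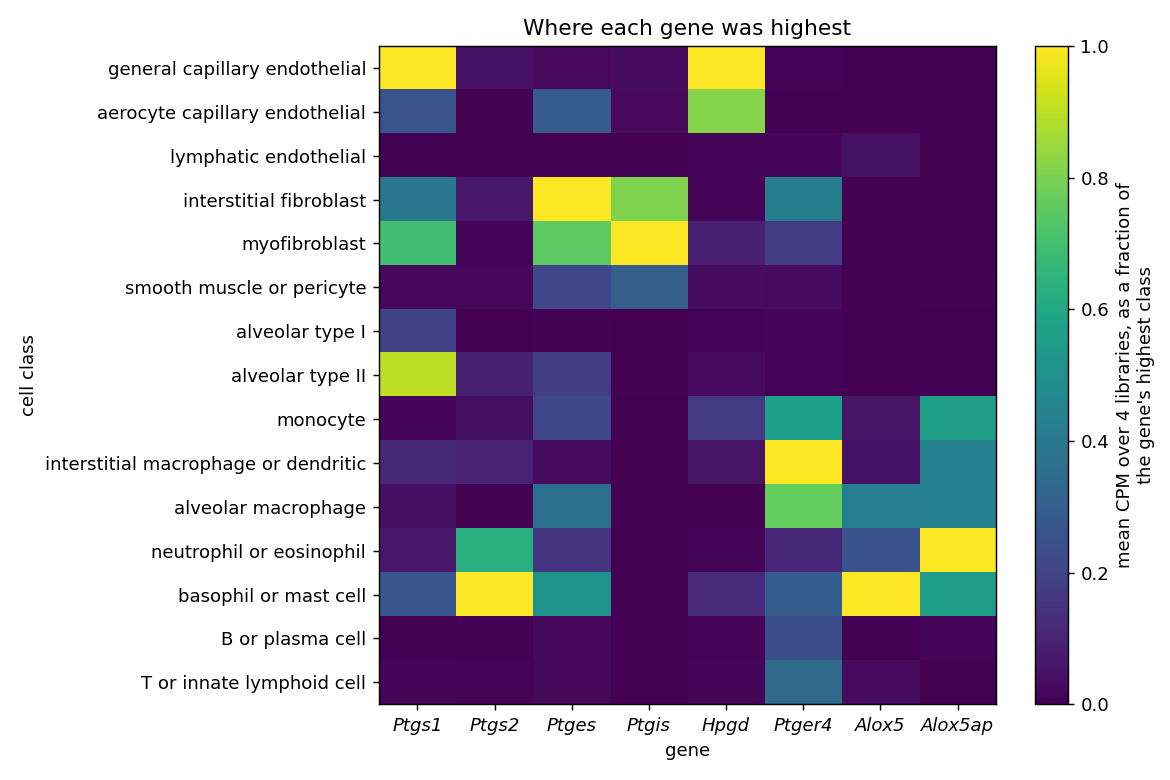
Level of the 8 genes (columns) in the 15 named classes (rows), as the mean CPM over the 4 libraries divided by the mean of the gene's highest class, so that colors compare classes within a gene and not genes with each other. *Hpgd* and *Ptgs1* peak in general capillary endothelial cells, *Ptges* and *Ptgis* in fibroblasts and myofibroblasts, and *Alox5* and *Alox5ap* in granulocytes, macrophages and monocytes.

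With ventilation in young mice, *Ptgs2* and *Ptges* were higher in most classes where they could be measured, and *Hpgd* and *Alox5* were lower. Of 52 gene and class pairs of the 8 genes with enough UMIs, 15 were higher (28.8%) and 14 lower (26.9%) in the young ventilated than in the young nonventilated library. Over all genes the shares were 9.27% higher and 15.1% lower. *Ptgs2* was higher in 7 of 9 classes and lower in 0. *Ptges* was higher in 6 of 8, and *Hpgd* was lower in 7 of 8. With ventilation in aged mice, 49 pairs had enough UMIs, of which 8 were higher (16.3%) and 6 lower (12.2%), against 5.63% and 10.7% over all genes. Here *Ptgs2* was higher in 2 of 8 classes and *Hpgd* lower in 3 of 8. A pair that reached 20 UMIs through only 1 of its libraries was partly chosen for its difference, so that these counts are descriptions. Whether the response differed between ages was not tested.

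**Figure D2:**
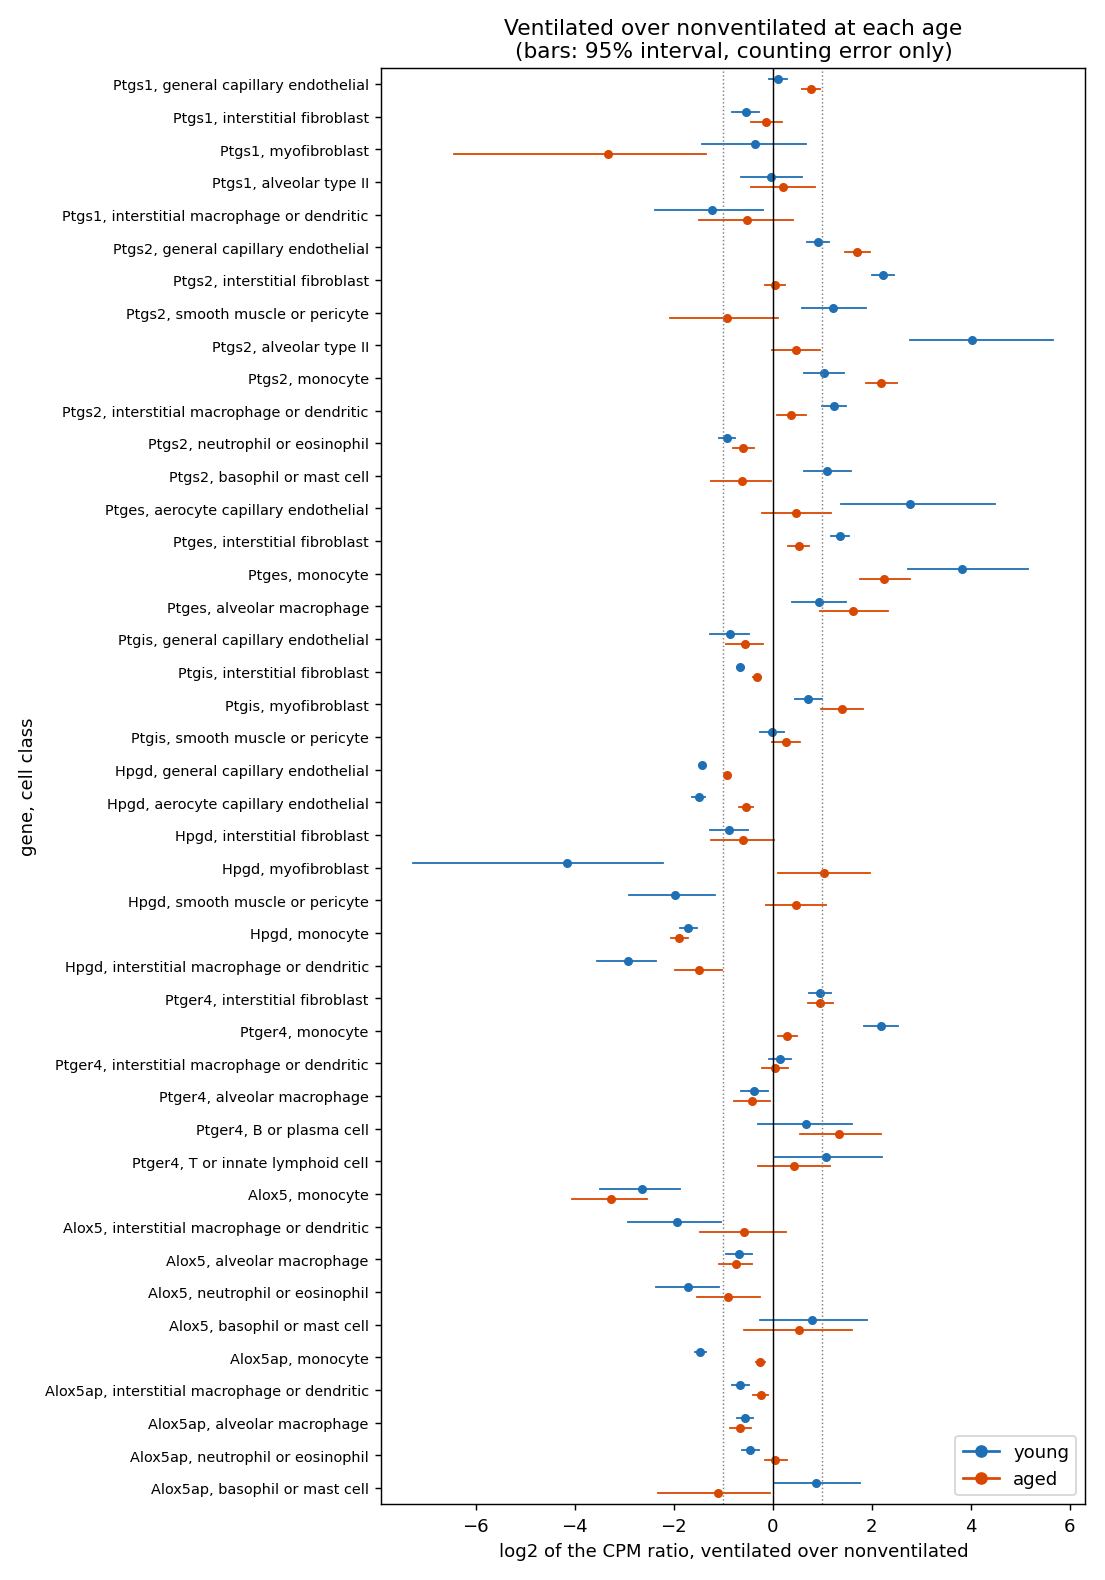
Log2 ratio of CPM, ventilated over nonventilated, for the pairs of gene and class that had enough UMIs at both ages and no library at 0, in young (blue) and aged (orange) mice, with 95% intervals for counting error as bars and dotted lines at a ratio of 2 and of 0.5. *Hpgd* lies left of 0 at both ages in both capillary classes, monocytes and interstitial macrophages or dendritic cells, and *Ptges* lies right of 0 in fibroblasts, monocytes and alveolar macrophages.

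*Ptgs2*, the inducible cyclooxygenase, lies on chromosome 1 (chr1:150100031-150108227, plus strand, GRCm38, as are all gene spans here, from GENCODE). Its RefSeq promoter window (250 bases before to 50 after the RefSeq start, chr1:150099781-150100080, plus strand, GRCm38.p6) is printed because this gene had the largest number of classes higher with ventilation. Capitals mark matches on either strand to 6 short motifs, which were TATAAA (a core promoter element), TGACG (the core of a cyclic AMP response element), CACGTG (an E-box), GGGNNTTCC (NF-kB like), TTNNGNAA (C/EBP like) and TGANTCA (AP-1).
Ptgs2 promoter: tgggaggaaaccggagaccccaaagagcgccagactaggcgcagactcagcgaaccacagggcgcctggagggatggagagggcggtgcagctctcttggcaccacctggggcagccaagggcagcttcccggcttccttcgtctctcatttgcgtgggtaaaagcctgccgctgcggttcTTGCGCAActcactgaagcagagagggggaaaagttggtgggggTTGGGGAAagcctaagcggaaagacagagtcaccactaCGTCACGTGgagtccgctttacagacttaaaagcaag
It held 2 C/EBP-like matches, TTGCGCAA at −69 to −62 and TTGGGGAA at −25 to −18 from the RefSeq start, a motif found in 40.7% of 32851 promoters. A CGTCA (the reverse complement of TGACG) at 14 to 18 overlapped an E-box at 17 to 22. The response element core was in 20.8% and E-boxes in 7.15% of promoters. These are matches of letters and no test of binding.

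The highest *Ptgs2* levels were in basophils or mast cells, at 988 CPM without and 2115 with ventilation in young mice, and 1450 without and 948 with it in aged mice. These rest on 18, 20, 22 and 6 cells. In neutrophils or eosinophils the level was 1209 CPM in young and 981 in aged nonventilated mice, against 639 and 649 with ventilation. Both ventilated libraries were thus below both nonventilated ones, 1.89-fold lower (1.70–2.11) in young and 1.51-fold lower (1.30–1.75) in aged mice, which is under the 2-fold limit. The summed level of the class's own 8 markers differed as well, at 87446 and 84973 CPM in the nonventilated and 146220 and 155250 CPM in the ventilated libraries. The part of this in the *Ptgs2* values was not tested. Scaling by the median ratio of genes in place of class totals raised the ventilation log2 ratios of this class by 0.41 in young and 0.53 in aged mice.

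In interstitial fibroblasts, *Ptgs2* stood at 34.8 CPM (186 UMIs) in the nonventilated and 163 (1220 UMIs) in the ventilated young library, and 88.2 (401 UMIs) and 90.9 (375 UMIs) in the aged pair. It was 4.68-fold higher (4.01–5.49) with ventilation in young mice, while the aged libraries differed by a ratio of 1.03. The aged nonventilated library was already 2.54-fold above the young nonventilated one (2.13–3.03). Few cells carried these UMIs, namely 25 of 375, 95 of 496, 42 of 308 and 44 of 257 cells in the same order. The 10 cells with the most *Ptgs2* held 38.5% of the class total, against 10.8% in neutrophils or eosinophils. Without the top cell of each library, an alternative chosen after the data were seen, the young log2 ratio was 2.63 in place of 2.22.

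Finer clustering placed 77.1% of this fibroblast *Ptgs2* in adventitial fibroblasts, the cells around vessels and airways. There the level was 81.9 CPM without and 1011 with ventilation in young mice, and 233 without and 516 with it in aged mice. Within this subset *Ptgs2* was higher with ventilation at both ages, 12.3-fold (10.5–14.6) in young and 2.21-fold (1.89–2.58) in aged mice. The remaining fibroblasts of this class had 4.31 and 59.3 CPM in young and 0.35 and 24.9 CPM in aged mice without and with ventilation, the aged pair on 1 and 89 UMIs. Adventitial cells numbered 137 and 114 in the nonventilated young and aged libraries and 51 and 36 in the ventilated ones. Over the whole class, the 8 adventitial markers summed to 15684 and 14460 CPM in the nonventilated and 10282 and 11821 CPM in the ventilated libraries, and the part of this in the class values was not tested. The remaining fibroblasts lay in different finer clusters with and without ventilation, one of 231, 0, 192 and 2 cells and one of 7, 445, 2 and 219 cells, so that their values compare different clusters.

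In general capillary endothelial cells, *Ptgs2* was at 43.6 CPM in the nonventilated and 82.1 in the ventilated young library, and 33.7 and 110 in the aged pair. The ventilated libraries were above the nonventilated ones, by 1.88-fold in young and 3.26-fold (2.75–3.89) in aged mice. With at most 5% mitochondrial UMIs the aged log2 ratio was 0.50, below the limit. A venous endothelial subset of 318 cells held 97.3% of this *Ptgs2*, at 265, 736, 213 and 491 CPM. Within the venous subset the ratios were 2.78 (2.37–3.26) in young and 2.30 (1.93–2.75) in aged mice. The 8 venous markers summed over the class to 1437, 1086, 1367 and 2073 CPM in that order, highest where *Ptgs2* was highest, and the part of this in the class values was not tested.

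Monocytes had *Ptgs2* at 23.4 CPM without and 47.7 with ventilation in young mice, and 22.5 without and 103 with it in aged mice. This was 2.04-fold higher (1.54–2.72) with ventilation in young and 4.57-fold higher (3.68–5.71) in aged mice, and the aged ventilated library was 2.15-fold above the young ventilated one (1.81–2.56). The young ratio was just below 2 when each cell was weighted equally (log2 ratio 0.99). Neutrophil or eosinophil markers in the monocyte class moved in the same order, from 399 and 183 CPM in the nonventilated to 1157 and 2614 CPM in the young and aged ventilated libraries, with 0 or 1 of 8 markers at 0, and their part was not tested. Classical monocytes, the recruited inflammatory kind, held 78.6% of the class *Ptgs2*, at 30.2 and 83.1 CPM in the young and 55.5 and 144 CPM in the aged libraries without and with ventilation. Most classical monocytes of the nonventilated libraries fell into one finer cluster (104, 1, 87 and 3 cells) and most of the ventilated ones into another (0, 109, 0 and 140 cells). Every value of the classical subset thus compares different clusters.

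In interstitial macrophages or dendritic cells *Ptgs2* was at 99.6 CPM in young and 86.9 in aged nonventilated mice, against 235 and 113 with ventilation. The young ventilated library stood apart from the other 3, at 2.36-fold (1.98–2.81) the young nonventilated one and 2.08-fold above the aged ventilated one (1.76–2.47). With the UMI limit set within the other limits, the young log2 ratio was 0.85. Interstitial macrophages, tissue-resident phagocytes outside the airspace, held 99.7% of it.

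Alveolar type II cells, which make surfactant, had 5, 167, 75 and 75 *Ptgs2* UMIs. The levels were 13.1, 215, 120 and 167 CPM, a 16.3-fold (6.86–51.0) difference with ventilation in young mice. A single cell held 50 of the 75 UMIs in the aged ventilated library. Without upper limits on genes and UMIs the young log2 ratio was 2.43. With each cell thinned to 1000 UMIs it was 1.24, and the call was lost. The class had a median of only 1626 UMIs per cell, and finer clustering moved 314 of its 390 cells to an alveolar type I class with few UMIs. Smooth muscle cells or pericytes had 32, 63, 32 and 11 UMIs, and the young ventilated library of this class had an estimated 60.3% of background RNA against 1.1–1.3% in the others. After subtraction of that background the young log2 ratio was −3.75, the opposite direction. Myofibroblasts had 0, 27, 0 and 1 UMIs, a ratio of at least 9.83 for young mice when the 0 is put at a floor of 3 UMIs. Alveolar macrophages, with 0, 6, 3 and 2 UMIs, had nearly none.

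*Ptges* encodes the inducible synthase of prostaglandin E2 (chr2:30889471-30929863, minus strand). Its RefSeq window (chr2:30903248-30903547, minus strand) is shown as that of the second gene that was higher with ventilation in most classes, with the same motifs in capitals.
Ptges promoter: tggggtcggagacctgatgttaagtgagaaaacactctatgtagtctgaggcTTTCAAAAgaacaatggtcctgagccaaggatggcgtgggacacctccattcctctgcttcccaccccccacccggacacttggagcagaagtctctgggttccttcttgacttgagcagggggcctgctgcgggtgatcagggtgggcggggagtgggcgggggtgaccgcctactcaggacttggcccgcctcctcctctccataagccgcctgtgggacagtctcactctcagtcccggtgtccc
It held 1 C/EBP-like match, on the opposite strand at −198 to −191, and no match to the other motifs.

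The main source of *Ptges* was interstitial fibroblasts, at 61.7 CPM (330 UMIs) in the nonventilated and 158 (1184 UMIs) in the ventilated young library, and 73.0 (332 UMIs) and 105 (435 UMIs) in the aged pair. Both ventilated libraries were above both nonventilated ones, by 2.56-fold (2.27–2.90) in young and 1.44-fold (1.25–1.67) in aged mice. Unlike *Ptgs2*, *Ptges* was spread over many fibroblasts, with UMIs in 181 of 375, 306 of 496, 183 of 308 and 148 of 257 cells. Cells with UMIs of both *Ptgs2* and *Ptges* numbered 9, 57, 23 and 29. In adventitial fibroblasts alone, the ventilated libraries were above the nonventilated ones by 2.10-fold (1.56–2.81) in young and 2.13-fold (1.52–2.96) in aged mice.

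Monocytes had *Ptges* at 2.3 CPM (7 UMIs) without and 32.6 (125 UMIs) with ventilation in young mice, and 8.9 (40 UMIs) without and 42.4 (214 UMIs) with it in aged mice. Ventilated monocytes were 14.1-fold (6.66–35.9) above nonventilated ones in young and 4.76-fold (3.38–6.85) in aged mice. In each monocyte subset the ventilated library was above the nonventilated one of its age. In classical monocytes, whose finer clusters differed with ventilation, the ratios were 12.0 (5.28–33.5) and 5.97 (3.14–12.7). In alveolar macrophages *Ptges* was at 24.4, 46.6, 18.2 and 56.4 CPM, a 1.91-fold difference in young and a 3.10-fold (1.94–5.04) difference in aged mice. Myofibroblasts, contractile cells of the alveolar ducts, had 5 and 52 UMIs in young and 6 and 13 in aged mice, 11.4-fold higher (4.57–36.4) with ventilation in the young. Aerocyte capillary endothelial cells, which line the gas exchange surface, had 5, 30, 32 and 46 UMIs. The young nonventilated library was the low one there, with the aged nonventilated library 10.5-fold above it (4.04–34.4). Neutrophils or eosinophils had 0, 24, 6 and 22 UMIs, a ratio of at least 3.94 for young mice by the same floor. General capillary cells had 5, 33, 3 and 11 UMIs, 6.08-fold higher (2.36–19.9) in the young, with a log2 ratio of 1.16 when the upper limits on genes and UMIs were dropped. The young call was lost with at most 5% mitochondrial UMIs, with thinning and with background subtraction (log2 ratio 1.42). Estimated background in this class was 1.48% in the young nonventilated and 7.49% in the young ventilated library, and its part was not tested further.

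**Figure D3:**
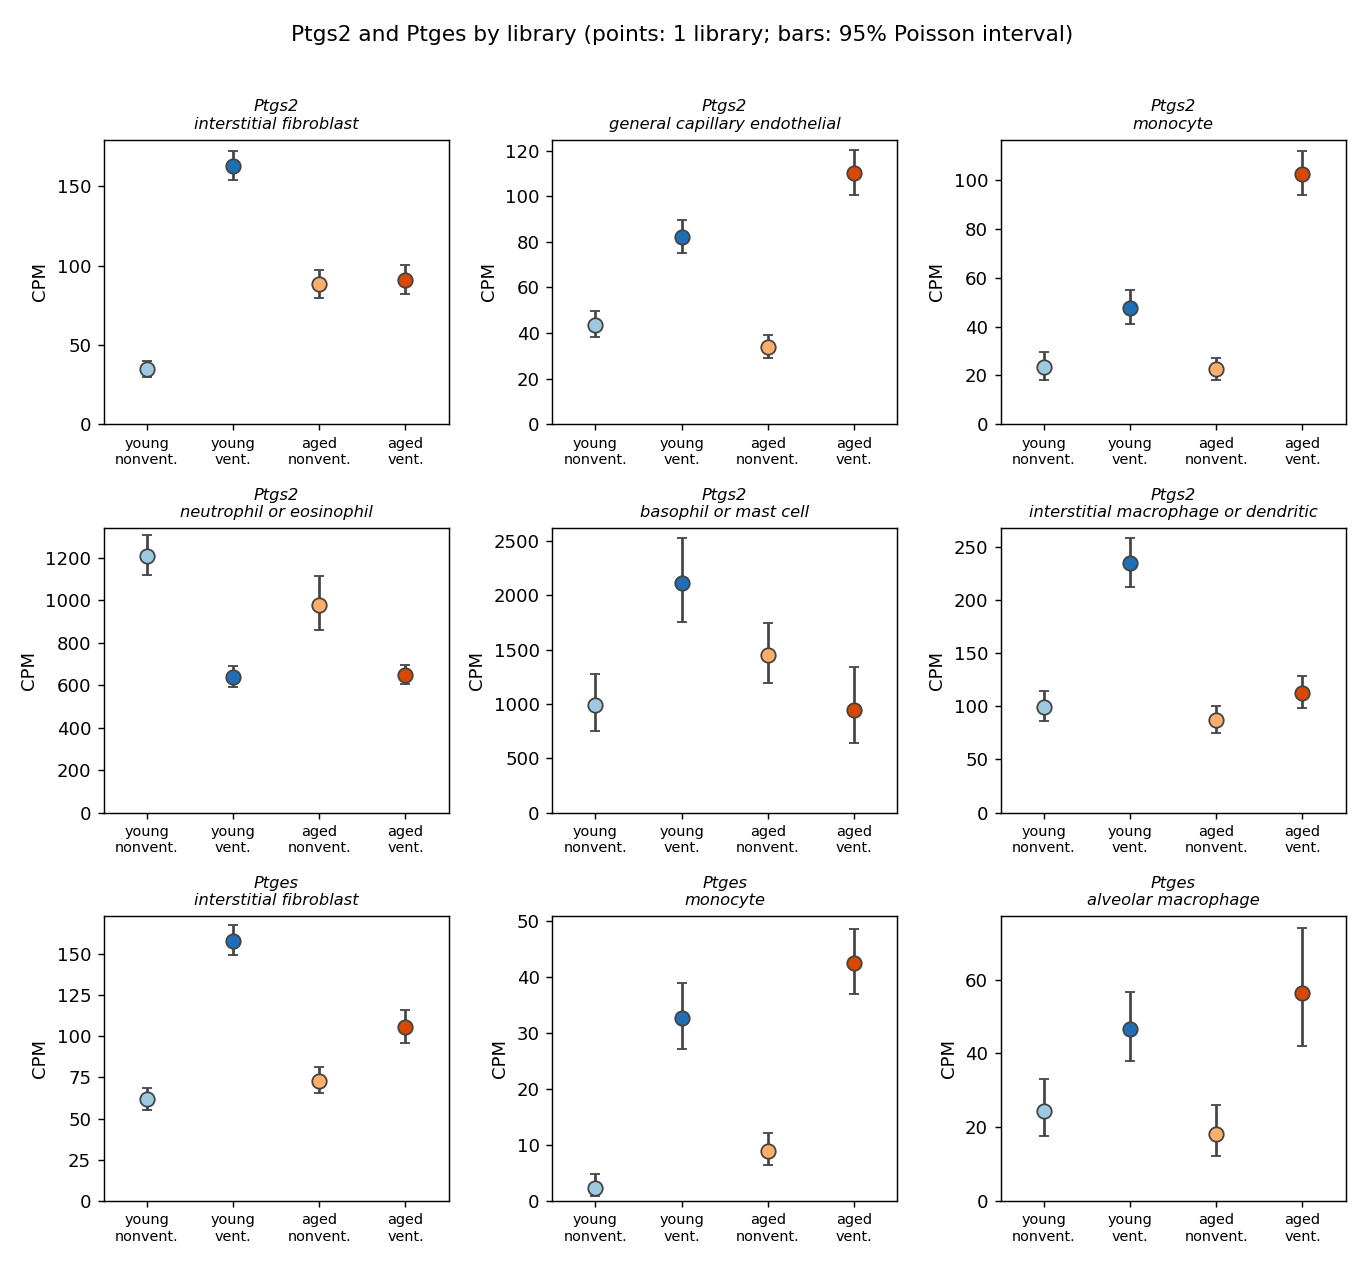
*Ptgs2* (upper 6 panels) and *Ptges* (lower 3 panels) in CPM by library, where a point is 1 library and a bar its exact 95% Poisson interval. *Ptgs2* in fibroblasts is highest in the young ventilated library (163 CPM) and in monocytes and general capillary endothelial cells in the aged ventilated one, while in neutrophils or eosinophils both ventilated libraries are low.

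*Ptgs1*, the constitutive cyclooxygenase (chr2:36230426-36252272, plus strand), differed less. In general capillary endothelial cells it was at 84.9 CPM in young and 77.1 in aged nonventilated mice, against 90.9 and 131 with ventilation. Only the aged ventilated library stood apart, 1.70-fold (1.50–1.94) above the aged nonventilated one, which is under the 2-fold limit, against a ratio of 1.07 (0.95–1.21) in young mice. In aerocytes the same library was highest, with 11, 18, 19 and 53 UMIs, and was 2.70-fold (1.57–4.83) above the aged nonventilated and 4.10-fold (2.36–7.43) above the young ventilated library. Alveolar type II cells had *Ptgs1* at 91.9, 89.9, 76.7 and 88.9 CPM, a range of levels that overlapped that of general capillary cells. Myofibroblasts had 21, 15, 31 and 2 UMIs, 10.0-fold lower (2.55–86.3) with ventilation in aged mice. Interstitial macrophages or dendritic cells had 30 and 11 UMIs in the young libraries, 2.34-fold lower (1.14–5.17).

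*Ptgis*, which makes the vessel-dilating prostacyclin (chr2:167191805-167240604, minus strand), was a gene of mesenchymal cells. Interstitial fibroblasts had it at 665 CPM in the nonventilated and 422 in the ventilated young library, and 627 and 505 in the aged pair, lower with ventilation by less than 2-fold at both ages (ratios of 0.63 and 0.80). Myofibroblasts had 533, 879, 367 and 972 CPM, the opposite order, with ratios of 1.65 in young and 2.65 (1.98–3.56) in aged mice. Smooth muscle cells or pericytes stayed between 184 and 222 CPM in all 4 libraries. *Ptgis* was called in 0 of 4 classes with ventilation in young mice and only in myofibroblasts in aged mice. In general capillary endothelial cells it was at 26.6, 14.7, 31.7 and 21.5 CPM, of which venous cells held 62.2%. Aerocytes had 17, 2, 28 and 21 UMIs. A mesothelial subset of 30 cells had 557 and 1447 CPM in young and 297 and 608 CPM in aged mice without and with ventilation. These rest on 10, 14, 3 and 3 cells in that order.

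*Hpgd*, the dehydrogenase that starts prostaglandin breakdown (chr8:56294585-56321043, plus strand), was lower with ventilation in the endothelium at both ages. Its RefSeq window (chr8:56294302-56294601, plus strand) is shown since this gene had the most classes lower with ventilation.
Hpgd promoter: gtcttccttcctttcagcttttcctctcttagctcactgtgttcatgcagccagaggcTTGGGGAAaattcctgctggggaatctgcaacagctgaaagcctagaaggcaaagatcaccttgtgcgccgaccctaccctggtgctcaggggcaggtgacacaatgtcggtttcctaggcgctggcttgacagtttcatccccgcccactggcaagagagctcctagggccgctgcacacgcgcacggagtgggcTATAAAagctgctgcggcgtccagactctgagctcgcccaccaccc
It held 1 C/EBP-like match (TTGGGGAA) at −192 to −185 and TATAAA at 5 to 10, a motif found in 13.6% of promoters. The windows of *Ptgs1*, *Alox5* and *Ptger4* held 0 matches to the 6 motifs, and *Ptgis* and *Alox5ap* had no entry in the table used. The NF-kB-like motif was in 5.82% and the AP-1 motif in 7.81% of all promoters, and in none of these 6 windows.

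In general capillary endothelial cells *Hpgd* was at 1397 CPM (7719 UMIs) without and 522 (3135 UMIs) with ventilation in young mice, and 1680 (8918 UMIs) without and 891 (4013 UMIs) with it in aged mice. Both ventilated libraries were below both nonventilated ones, by 2.67-fold (2.57–2.79) in young and 1.89-fold (1.82–1.96) in aged mice. The aged libraries were above the young ones, by 1.20-fold without and 1.71-fold (1.63–1.79) with ventilation. When every cell was thinned to 1000 UMIs, 62.8%, 31.1%, 70.3% and 44.8% of general capillary cells had an *Hpgd* UMI. Without thinning these were 628 of 677, 501 of 713, 560 of 596 and 368 of 447 cells. B or plasma cells, which should lack the gene, had thinned shares of 2.11%, 2.70%, 0% (0 of 100 cells, where a limit of 3 counts allows up to 3%) and 1.10%. Median depth was 7185 to 8891 UMIs in general capillary cells and 7467 to 11092 in B or plasma cells. General capillary cells also lay in different finer clusters with and without ventilation, one of 576, 18, 494 and 63 cells and one of 7, 633, 12 and 302 cells.

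Aerocytes had *Hpgd* at 1322 CPM in young and 1109 in aged nonventilated mice, against 470 and 767 with ventilation. The levels were 2.81-fold lower (2.57–3.09) with ventilation in young and 1.45-fold lower (1.31–1.59) in aged mice. The capillary cells with few UMIs had 2492, 1054, 2556 and 1537 CPM, with 770 of their 1232 *Hpgd* UMIs in those placed with general capillary cells. Venous cells had 1011, 394, 1199 and 684 CPM. In both, the ventilated library was below the nonventilated one of the same age. The classes' own markers were lower in the ventilated libraries as well, at 9060, 6005, 8938 and 7162 CPM summed over 8 markers in general capillary cells and 10897, 5270, 9600 and 6547 CPM in aerocytes, and the part of this in the *Hpgd* values was not tested. Scaling by the median ratio of genes in place of class totals raised the young ventilation ratios of all genes by 0.31 (log2) in general capillary cells and 0.37 in aerocytes.

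*Hpgd* was also lower outside the endothelium. Monocytes had 328 CPM in the nonventilated and 101 in the ventilated young library, and 258 and 69.9 in the aged pair, 3.26-fold (2.89–3.67) and 3.69-fold (3.27–4.16) lower with ventilation. Nonclassical monocytes, which patrol vessels, had most of it at 469, 200, 323 and 138 CPM. Classical monocytes had 211 and 13.8 CPM in young and 96.4 and 12.8 CPM in aged mice, 15.3-fold (10.4–23.4) and 7.54-fold (5.15–11.3) lower, again between different finer clusters. The makeup of the monocyte class moved too, with nonclassical markers at 2993 and 3779 CPM in the nonventilated and 1847 and 1990 CPM in the ventilated libraries, and its part in the class values was not tested. In interstitial macrophages or dendritic cells *Hpgd* was at 121, 15.9, 72.8 and 26.0 CPM, 7.59-fold (5.09–11.8) lower in young and 2.81-fold (2.03–3.94) lower in aged mice. General capillary markers in that class summed to 142, 121, 167 and 164 CPM, with 0 to 2 of 8 at 0. Without the upper limits on genes and UMIs, its young log2 ratio was −1.70, and with the UMI limit set within the other limits the aged one was −0.83, short of 2-fold.

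Smaller classes gave less even values. Myofibroblasts had 39, 2, 19 and 25 *Hpgd* UMIs, 17.9-fold lower (4.62–153) in young mice and, with 19 of the 25 aged ventilated UMIs in 1 cell, 2.04-fold higher in aged mice. Without the top cell of each library, chosen as an alternative after the data were seen, the aged log2 ratio was −0.43. Smooth muscle cells or pericytes had 70, 15, 50 and 47 UMIs, 3.94-fold lower (2.24–7.42) in young mice, with a log2 ratio of −0.09 once cells with UMIs of another lineage were left out. B or plasma cells had 22 and 1 UMIs in young mice, of which 18 were in 1 cell. Alveolar type II cells had 37 and 6 UMIs in aged mice.

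**Figure D4:**
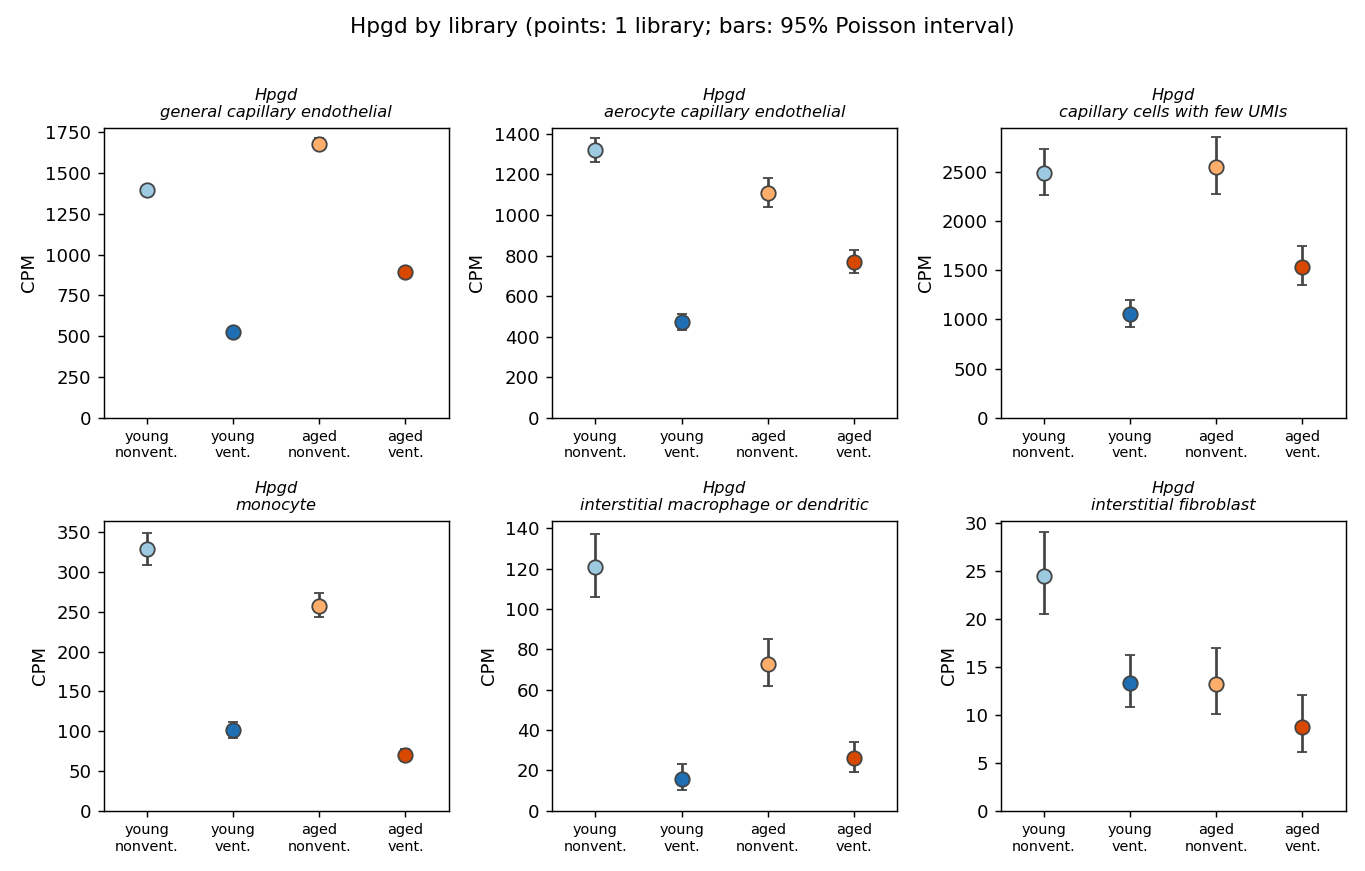
*Hpgd* in CPM by library in 5 classes and in the 564 capillary cells with few UMIs, where a point is 1 library and a bar its exact 95% Poisson interval. In each panel the ventilated library lies below the nonventilated one of the same age, at 522 against 1397 CPM in young and 891 against 1680 CPM in aged general capillary endothelial cells.

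*Ptger4*, the EP4 receptor for prostaglandin E2 (chr15:5206661-5244187, minus strand), was highest in phagocytes. In interstitial macrophages or dendritic cells it was at 172, 191, 121 and 125 CPM, with little difference by ventilation. Alveolar macrophages had 132, 102, 131 and 98.5 CPM. Monocytes had 28.3 CPM (86 UMIs) without and 129 (493 UMIs) with ventilation in young mice, and 84.1 (378 UMIs) without and 103 (522 UMIs) with it in aged mice. The young nonventilated library was the low one, 4.54-fold (3.60–5.77) below the young ventilated and 2.97-fold (2.34–3.80) below the aged nonventilated library, while the aged pair differed by 1.23-fold. In nonclassical monocytes *Ptger4* was at 34.1, 206, 104 and 139 CPM, and in classical monocytes it was 2.57-fold (1.78–3.79) higher with ventilation in young and 2.02-fold (1.47–2.84) higher in aged mice. Interstitial fibroblasts had 42.8, 82.9, 44.2 and 86.3 CPM, with ventilated above nonventilated by 1.94-fold and 1.95-fold. Among sparse classes, *Ptger4* had 20 and 2 UMIs in young myofibroblasts, 12 and 24 in young T or innate lymphoid cells and 18 and 53 in aged B or plasma cells without and with ventilation.

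*Alox5* (chr6:116410077-116461178, minus strand), the first enzyme of leukotriene synthesis, had lower levels with ventilation in each of the better-sampled myeloid classes. By the 2-fold limit it was called lower in 3 of 5 classes (60%) in young and 1 of 5 (20%) in aged mice. Over all genes the shares were 15.1% and 10.7%. Alveolar macrophages had 161 CPM in young and 182 in aged nonventilated mice, against 101 and 109 with ventilation, 1.59-fold and 1.68-fold lower. Monocytes had 27.7 CPM (84 UMIs), 4.4 (17 UMIs), 34.0 (153 UMIs) and 3.6 (18 UMIs). This was 6.24-fold lower (3.68–11.2) in young and 9.55-fold lower (5.84–16.5) in aged mice. The cells with an *Alox5* UMI numbered 52 of 253, 11 of 385, 98 of 484 and 11 of 370. Within nonclassical monocytes alone, *Alox5* was 5.73-fold (3.35–10.4) lower in young and 5.86-fold (3.58–10.2) lower in aged mice. Neutrophils or eosinophils had 109, 33.2, 119 and 63.3 CPM, 3.27-fold (2.12–5.10) and 1.88-fold lower. Interstitial macrophages or dendritic cells had 29.3, 7.7, 15.5 and 10.4 CPM, 3.82-fold (2.07–7.61) lower in young mice and 1.49-fold lower in aged mice, and the young log2 ratio was −0.81 without the upper limits. Basophils or mast cells, the class with the highest level at 221, 385, 274 and 397 CPM, had only 13 to 22 UMIs per library.

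*Alox5ap* (chr5:149264767-149288153, plus strand), whose product presents arachidonic acid to the lipoxygenase, followed *Alox5* in part. Monocytes had it at 710 CPM in the nonventilated and 258 in the ventilated young library, and 442 and 371 in the aged pair, 2.75-fold (2.55–2.97) and 1.19-fold (1.12–1.27) lower with ventilation. Within nonclassical monocytes the levels were 3.65-fold (3.12–4.29) lower in young and 1.90-fold (1.70–2.14) lower in aged mice, and within classical monocytes 2.45-fold (2.25–2.68) and 1.29-fold (1.19–1.41) lower. Alveolar macrophages had 435, 295, 424 and 270 CPM, 1.47-fold and 1.57-fold lower. Neutrophils or eosinophils had 891, 651, 816 and 849 CPM, lowest in the young ventilated library when scaled by class totals. B or plasma cells had 20, 1, 9 and 13 UMIs. Interstitial macrophages or dendritic cells had 410, 261, 405 and 343 CPM. Of the monocytes with an *Alox5* UMI, 52 of 52, 6 of 11, 90 of 98 and 8 of 11 also had an *Alox5ap* UMI. Of all monocytes, 243 of 253, 203 of 385, 391 of 484 and 279 of 370 had one.

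**Figure D5:**
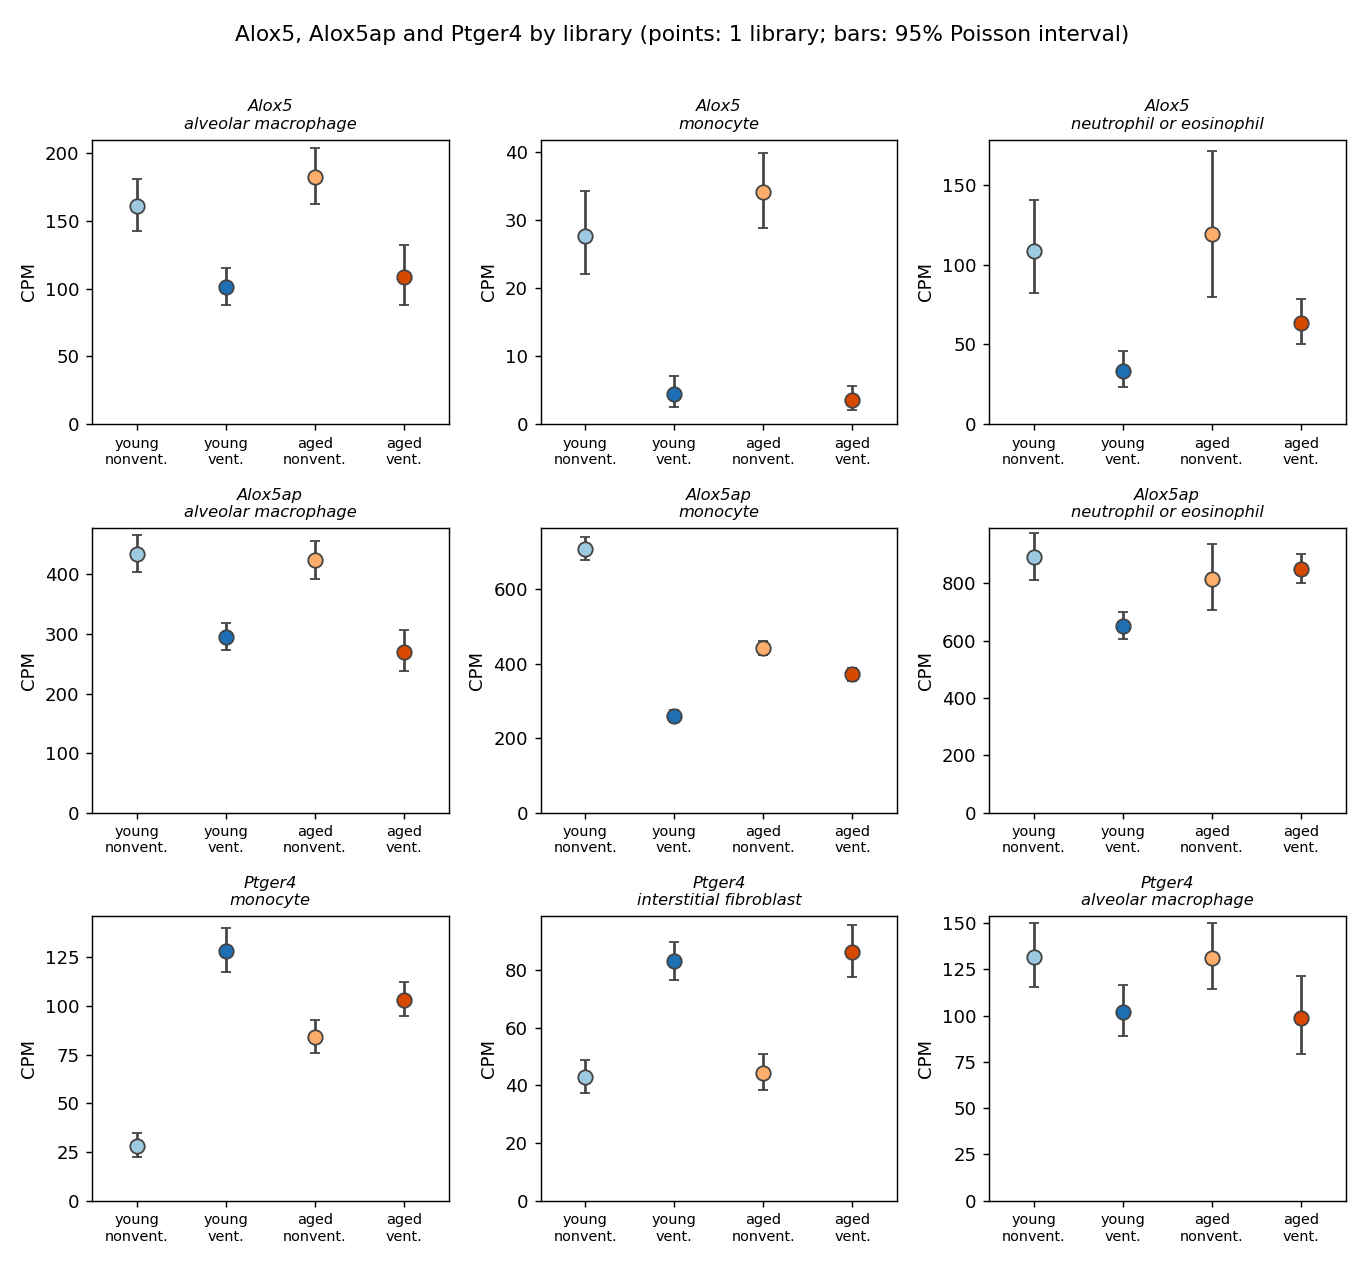
*Alox5* (top), *Alox5ap* (middle) and *Ptger4* (bottom) in CPM by library in 3 classes each, where a point is 1 library and a bar its exact 95% Poisson interval. *Alox5* in monocytes is at 27.7 and 34.0 CPM in the nonventilated and at 4.4 and 3.6 CPM in the ventilated libraries, and *Ptger4* in monocytes is lowest in the young nonventilated library.

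Between the ages, which cannot be told apart from diet, fewer pairs were called in the nonventilated libraries than for ventilation at either age. Between the nonventilated libraries 50 pairs had enough UMIs, of which 7 were higher (14%) and 3 lower (6%) in aged mice, against 3.93% and 3.01% over all genes. The 7 were *Ptgs2* in fibroblasts and alveolar type II cells, *Ptges* in aerocytes and monocytes, *Ptger4* in monocytes, *Ptgis* in aerocytes (17 and 28 UMIs) and *Ptgs1* in myofibroblasts (21 and 31 UMIs). *Ptgs2* in alveolar type II cells lost this call without upper limits on genes and UMIs (log2 ratio 0.81) and when thinned (0.44). The 3 were *Hpgd* and *Alox5ap* in B or plasma cells and *Ptger4* in myofibroblasts, each on at most 22 UMIs. Between the ventilated libraries 49 pairs had enough UMIs, of which 7 were higher (14.3%) and 6 lower (12.2%) in aged mice, against 4.48% and 4.97% over all genes. The 7 were *Ptgs2* in monocytes, *Ptgs1*, *Ptges* and *Ptgis* in aerocytes, *Hpgd* in myofibroblasts and in smooth muscle cells or pericytes, and *Ptger4* in neutrophils or eosinophils (11 and 31 UMIs). Of the 11 alternatives of cell choice and scaling, 5 lost the call of *Ptges* in aerocytes and 5 that of *Hpgd* in smooth muscle cells or pericytes, where the log2 ratio without upper limits was 0.0077. *Ptgs2* accounted for 4 of those 6 lower pairs, in interstitial macrophages or dendritic cells, basophils or mast cells, smooth muscle cells or pericytes, and myofibroblasts (27 and 1 UMIs). In that order, 1, 3, 2 and 2 of the 11 alternatives lost these *Ptgs2* calls. The log2 ratio was −0.38 in basophils or mast cells without mixed cells. It turned to 3.01 in smooth muscle cells or pericytes after background subtraction and to 1.17 in myofibroblasts when thinned. The other 2 lower pairs were *Alox5ap* in basophils or mast cells and *Ptges* in general capillary cells, a call that 6 of the 11 alternatives lost.

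Other genes of the pathway were read from a list of 52. With ventilation in young mice 22 of 179 pairs were higher (12.3%) and 45 lower (25.1%), and in aged mice 15 of 176 were higher (8.52%) and 32 lower (18.2%). The shares over all genes were 9.27% and 15.1% in young and 5.63% and 10.7% in aged mice. Of the prostanoid receptor pairs 2 of 22 were higher (9.09%) and 9 lower (40.9%) in young mice, and 0 of 18 higher and 7 lower (38.9%) in aged mice, against the same shares over all genes. The thromboxane receptor gene *Tbxa2r* in aerocytes was at 76.9 CPM without and 3.90 with ventilation in young mice, and 46.0 without and 6.51 with it in aged mice, 19.7-fold (8.20–61.9) lower in the young. *Fpr2*, a receptor for lipid mediators and formyl peptides, had 51 and 1185 UMIs in young monocytes without and with ventilation, 18.4-fold higher (13.9–24.8), and it was 6.04-fold higher (4.52–8.23) in aged than in young nonventilated monocytes. *Pla2g2d*, a secreted phospholipase, had 128 and 8 UMIs in young interstitial macrophages or dendritic cells without and with ventilation, 13.7-fold lower (6.75–32.5). In aged neutrophils or eosinophils *Tbxas1*, the thromboxane synthase, was 13.1-fold lower (6.83–26.4) with ventilation. Of these, *Fpr2* was highest in neutrophils or eosinophils, *Pla2g2d* in interstitial macrophages or dendritic cells and *Tbxas1* in alveolar macrophages. Young fibroblasts had 22 and 2 *Tbxa2r* UMIs (15.4-fold lower, 3.79–135).

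The other named genes were in classes where they were sparse. With ventilation in aged mice, *Ptgr1*, a reductase of prostaglandin metabolites, had 25 and 2 UMIs in alveolar type II cells, its highest class. *Prxl2b*, a synthase of prostaglandin F2α, had 21 and 2 UMIs in general capillary cells and was highest in monocytes. In aged over young nonventilated mice, *Pla2g2d* had 37 against 0 UMIs in alveolar macrophages (a ratio of at least 12.9 by that floor). *Hpgds*, a synthase of prostaglandin D2 that was highest in interstitial macrophages or dendritic cells, had 35 against 4 UMIs in B or plasma cells. Between the ventilated libraries, *Abcc4*, a prostaglandin exporter that was highest in monocytes, was 4.84-fold higher (3.03–7.98) in aged alveolar type II cells.

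*Slco2a1*, the transporter that takes prostaglandins up before *Hpgd* breaks them down, was highest in general capillary endothelial cells, at 1244, 1152, 1180 and 1549 CPM, where *Hpgd* was lower with ventilation. The classes that follow, named for their large ratios, each held few of its 33539 UMIs. In basophils or mast cells *Slco2a1* had 2 UMIs in the aged nonventilated library (22 cells) and 28 in the aged ventilated one (6 cells). The young ventilated library had 0 (20 cells). UMIs of another lineage were found in 1 of the 6 aged ventilated cells, and the part of that cell in the 28 UMIs was not tested. *Slco2a1* was 5.80-fold lower (2.88–12.4) in aged than in young nonventilated T or innate lymphoid cells. In aged ventilated against young ventilated mice it was 6.36-fold lower (2.43–21.1) in interstitial macrophages or dendritic cells and 4.48-fold lower (2.87–7.33) in fibroblasts.

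The genes most like each member in their mean level over the 15 classes were found by Pearson's r of log2(CPM + 10), among genes with at least 50 CPM in 1 class. The classes share the 4 libraries, so that r is a description. *Hpgd* was most like *Ace* (r = 0.94), *Rgs9* (0.87) and *Smad6* (0.87). For *Ptgs1* these were *Mcf2l* (0.83), *Arhgap28* (0.78) and *Sh3d19* (0.77). The closest to *Ptgs2* were *Pgghg* (0.85), *Ptgs2os2* (0.85), a noncoding RNA gene downstream of it, and *Ccng2* (0.84). *Ptges* had no close match, with *Maml3*, *Ifrd1* and *Fbln1* all at 0.73. *Ptgis* ran with *Col3a1*, *Col5a1* and *Pi15* (0.98 each). *Ptger4* was nearest to *Gm2a* (0.84), *Slc16a10* (0.84) and *Lsp1* (0.83). *Alox5* was nearest to *Osm* (0.95), *Ccl6* (0.93) and *Btbd19* (0.92), and *Alox5ap* to *Fcgr3* (0.99), *C5ar1* (0.98) and *Il1b* (0.97).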

How the data were processed

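Per the labels and methods, the authors aligned the 3′ reads to mm10 with Cell Ranger 7.0.0 and deposited filtered matrices of raw UMI counts per gene and barcode. From these counts, barcodes were kept as the methods describe, if they had between 200 and 5000 genes, no more than 10% of UMIs from mitochondrial genes and a total of at most 28597.1 UMIs (the 93rd percentile of all barcodes), and no doublet caller was run. Cells were clustered with Seurat 5.3.0 in R 4.3.3 (resolution 0.18) without the pathway genes. UMIs were summed per library and class and divided by the class total (Python 3.11.15, SciPy 1.17.1). Ratio intervals are exact conditional binomial, those of levels exact Poisson and those of shares Clopper-Pearson, but a share of 0 is given with the limit that 3 counts allow. The members and all lists (markers, other pathway genes, motifs) were chosen with earlier results of these data known. Monocyte clusters were merged, and clusters with few UMIs set apart, after the clusters were seen. The 8 genes were measured in every class, and the text gives only a part of those values. Also named are the 4 other pathway genes with the largest log2 ratio in each comparison and the 3 genes most like each member. Calls and intervals were run on simulated counts drawn with Poisson error only. Those counts had no further spread between cells or mice. The run thus checks the calculation and cannot show whether the calls in the real data hold. Alternatives were other cell limits, resolutions, scalings, thinning, background subtraction and removal of mixed cells. Promoters came from RefSeq (6 of 8 members matched).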

Additional observations from a re-analysis of the deposited data

Results flagged for a closer look

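In 3 pairs of gene and class with enough UMIs, the counting intervals of the ventilation ratio lay wholly above 1 at one age and wholly below 1 at the other. Each rests on few cells, other pairs differed in direction with an interval that held 1, and the difference between ages was not tested. *Ptgs2* in basophils or mast cells had a log2 ratio (1 UMI added to each library) of 1.09 in young and −0.58 in aged mice. *Hpgd* in myofibroblasts had −3.61 in young and 1.01 in aged mice, and *Alox5ap* in basophils or mast cells had 0.85 in young and −0.97 in aged mice.

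The barcodes outside the cell limits, which enter no comparison, also held the 8 genes. They carried 3149 UMIs of *Ptgs1*, 4729 of *Ptgs2*, 1995 of *Ptges*, 10474 of *Ptgis*, 21372 of *Hpgd*, 2921 of *Ptger4*, 1656 of *Alox5* and 6908 of *Alox5ap*, against 3532, 8807, 3463, 14749, 33729, 5197, 1612 and 14905 in the kept cells. Most of these, such as 19408 of *Hpgd* and 1601 of *Alox5*, were in barcodes over the gene limit.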

How the results depend on the processing

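No paired analysis was possible because each group was 1 pooled library. With no replicates, depth and the number of cells limit every value, and nothing here speaks to the spread between mice. In all 11 cell and scaling alternatives, 1 of which (without the cell holding the most UMIs of the gene in each library) was chosen after seeing the data, the call held for *Hpgd* in young aerocytes, general capillary cells, monocytes and interstitial macrophages or dendritic cells and in aged monocytes, for *Ptgs2* and *Ptges* in young fibroblasts, for *Ptgs2* in aged monocytes, and for *Ptger4* and *Alox5ap* in young monocytes. By age, the call held in all 11 for *Ptgs2* in fibroblasts and *Ptger4* in monocytes (nonventilated) and for *Ptgs2* in monocytes (ventilated). *Alox5* in monocytes was lost at both ages only when cells were thinned, which left too few UMIs. Thinning to 1000 UMIs left 17 to 22 pairs and counts of 9 higher and 5 lower (young), 4 and 1 (aged), 2 and 1 (aged over young, nonventilated) and 1 and 1 (aged over young, ventilated). With no filter on UMIs there were 31 lower of 106 pairs (young) and 23 higher and 20 lower of 105 (aged). By age there were 21 and 17 of 105 (nonventilated) and 23 and 19 of 106 (ventilated). With at least 10 UMIs there were 11 lower of 64 pairs (aged). By age there were 13 higher and 5 lower of 61 (nonventilated) and 12 higher of 62 (ventilated). At a ratio of 1.5 the pairs were unchanged, with 23 higher (young) and 14 lower (aged). By age there were 8 lower (nonventilated), and 11 higher and 10 lower (ventilated). Without upper limits on genes and UMIs there were 26 lower of 73 pairs (young) and 13 lower of 70 (aged). By age there were 5 lower of 71 (nonventilated) and 11 higher of 67 (ventilated). A mitochondrial limit of 5% gave 10 lower of 46 (aged), and leaving out the top cell gave 1 lower of 45 (age, nonventilated). The shares over all genes were not computed under these alternatives. Median-ratio scaling moved the young ventilation log2 ratios by −0.01 (alveolar type II) to 0.41 (neutrophils or eosinophils). The aged ones moved by −0.12 (myofibroblasts) to 0.53 (neutrophils or eosinophils).

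Each called log2 ratio was counted once for every alternative. Of these values, 630 lay within the counting interval of their pair, 78 moved outside it and 15 turned, most of the latter on few UMIs. Pairs with few UMIs have wide intervals, so that a value within them can still have lost its call. *Hpgd* in B or plasma cells turned in young mice with per-cell means (0.23), thinning (0.78) and removal of mixed cells (0.0612), the last also between nonventilated ages (0.64). With thinning, 7 more turned. They were *Alox5ap* in young B or plasma cells (0.36), *Hpgd* in aged alveolar type II cells (0.0068), *Alox5ap* in aged basophils or mast cells (0.17), *Ptges* in general capillary cells (age, ventilated, 0.66), *Hpgd* in aged myofibroblasts (−0.54, and −0.43 without the top cell), *Ptger4* in myofibroblasts (age, nonventilated, 1.30) and *Ptgs2* in myofibroblasts (age, ventilated, 1.17). Background subtraction turned *Ptgs2* in smooth muscle cells or pericytes (−3.75 in young, 3.01 for age, ventilated), where the young ventilated background estimate was 60.3%. The mitochondrial limit of 5% turned *Hpgd* there (age, ventilated, −0.28). Other causes were not tested.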

Other observations

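2 further genes of the pathway list, chosen after their values were seen, act before the cyclooxygenases. *Pla2g4a*, the cytosolic phospholipase that frees arachidonic acid, was highest in monocytes, at 49.7 CPM in young and 48.3 in aged nonventilated mice, against 210 and 167 with ventilation. Both ventilated libraries were above both nonventilated ones. *Anxa1*, known as an inhibitor of phospholipase activity, was highest in alveolar type I cells, at 375 CPM in the nonventilated and 2446 in the ventilated young library, and 445 and 816 in the aged pair, on 27, 36, 34 and 19 cells.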
